A study of Homo sapiens with 12 samples.

Results

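The effect of raising the dose of 2,8-dihydroxyadenine (DHA) from 60 to 120 ug/ml was examined in HK-2, an immortalised human cell line of proximal tubule origin. The comparison takes the 3 libraries labelled 120 ug/ml DHA and the 3 labelled 60 ug/ml DHA, chosen by their labels, which are 6 of the 12 libraries of the series. The other 6 libraries came from cells in medium alone (control, 3 libraries) and at 240 ug/ml DHA (3 libraries). All 4 groups were kept in their medium for 72 h, and DHA was given as a suspension in the medium. No carrier of the suspension is named in the sources used here, and the dose of suspended material that reached each cell is not given, so the doses are nominal. Levels are the deposited normalised signal summed over the transcripts of a gene, with no unit, and differences are log2 differences of signal + 1, with the standard error (SE) of the fit. Read depth is unknown. No source used here says if libraries of a group are separate cultures, and the p-values reflect the spread between libraries only, which may be technical.

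DHA is a poorly soluble purine made from adenine by xanthine dehydrogenase when adenine phosphoribosyltransferase is lacking, and it crystallises in the kidney tubule. Tubule epithelial cells can bind and take up crystals, and crystal contact is known to evoke stress, growth and inflammatory gene programmes and loss of transport functions. Nothing in the sources used here states what fraction of the suspension was crystalline. HK-2 cells retain a renal epithelial identity but lack much of the brush border programme of the native segment. In these libraries the renal transcription factor PAX8 had a mean of 271 at 60 and 304 at 120 ug/ml, while the proximal tubule receptor LRP2 and the organic anion transporter SLC22A6 were listed at 0 in every library, and CUBN, SLC34A1, AQP1 and ANPEP did not exceed 0.9 in any library. The defining markers of endothelium (PECAM1, CDH5, VWF, KDR) and thick limb (UMOD, SLC12A1) did not exceed 0.3, and the leukocyte markers PTPRC and CD3E were listed at 0. Of the same leukocyte list CD14 did not exceed 0.7, and CD68, a lysosomal membrane protein, had means of 120 at 60 and 100 at 120 ug/ml. Because whole cultures were measured, fewer cells of a type and less RNA per cell cannot be told apart.

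Each library was placed on a line from the control mean (0) to the 240 ug/ml mean (1), a scale that uses neither dose compared here. The libraries at 60 ug/ml lay at 0.433, 0.345 and 0.631, and those at 120 ug/ml at 0.801, 0.806 and 0.838. All libraries of the higher dose were therefore beyond all of the lower, with means of 0.815 ± 0.0197 and 0.47 ± 0.147 (SD, n = 3). The two-sided exact permutation p was 0.1, the smallest that 3 against 3 libraries allow. Within the 60 ug/ml group the third library was apart from the other pair and closer to the 120 ug/ml libraries. Its GC correlation, that of its deviation from the mean of all libraries with the GC content of the genes, was 0.07 against 0.44 and 0.29, and its share of signal from mitochondrially encoded genes was 14.7% against 21.6% and 20.2%. At 120 ug/ml the GC correlations were 0, 0.08 and -0.08 and the mitochondrial shares 18.8%, 17% and 13.4%.

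**Figure D1:**
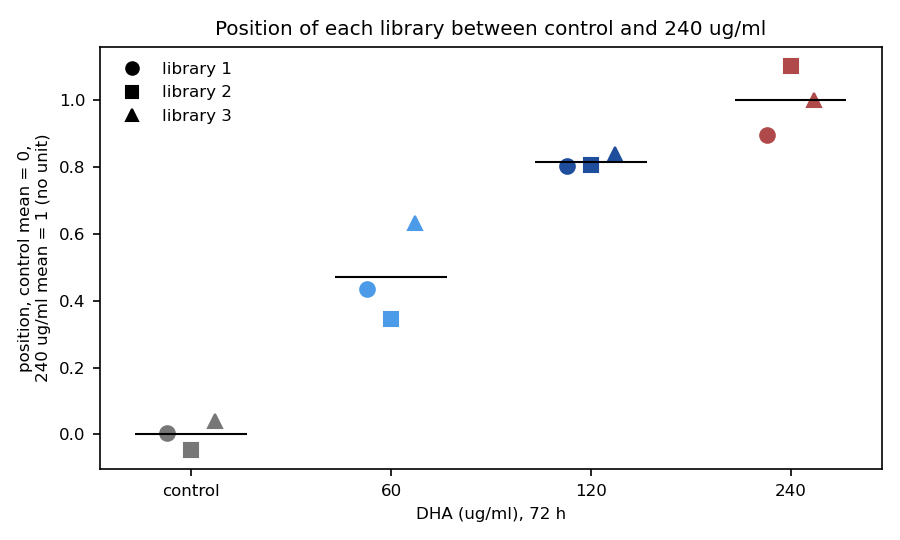
Position of each of the 12 libraries (vertical axis, no unit, control mean 0 and 240 ug/ml mean 1) by DHA dose (horizontal axis, ug/ml), with a bar at each group mean and marker shapes for the library numbers. The 120 ug/ml libraries lie between 0.801 and 0.838, and the 60 ug/ml libraries spread from 0.345 to 0.631.

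Of 16789 genes tested, 360 (2.14%) were called between 120 and 60 ug/ml at a limma adjusted p of 0.05. The cells at 120 ug/ml had 90 genes higher (0.536%) and 270 lower (1.61%), with median log2 differences of 0.58 and -0.62 among them. A log2 difference of 1 or more was reached by 13 of the higher and 28 of the lower genes. Protein-coding genes made up 75 of the 90 and 257 of the 270. An unadjusted p under 0.05 was seen for 4044 genes (24.1%), and the groups did not overlap for 4114 genes (24.5%), of which 1735 were higher (10.3%) and 2379 lower (14.2%) at 120 ug/ml. Among the called genes the groups did not overlap for 359, the exception being the collagen gene COL22A1.

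The number of calls rested on few libraries. Without the third library at 60 ug/ml, 1040 genes were higher and 1308 lower, among them all 90 and all 270. Without the first or the second library at 60 ug/ml, 0 genes were higher and 1 lower. Leaving out a library at 120 ug/ml gave 0 higher in each case, with 2 lower without the first, 2 without the second and 1 without the third. The libraries of the other doses, which enter through the shared estimate of spread, also moved the counts. These were 0 higher and 1 lower without the first control library, 25 and 61 without the second, and 31 and 84 without the third. Without the 240 ug/ml libraries they were 104 and 379 (the first), 149 and 480 (the second) and 26 and 99 (the third). The fit to the 6 libraries alone gave 0 and 1, with 3522 genes at an unadjusted p under 0.05. The gene called lower in each of these fits was the short microRNA locus MIR1302-5. Apart from MIR1302-5, the genes called between 120 and 60 ug/ml below lose their call when, for example, the first library at 60 ug/ml is left out.

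**Figure D2:**
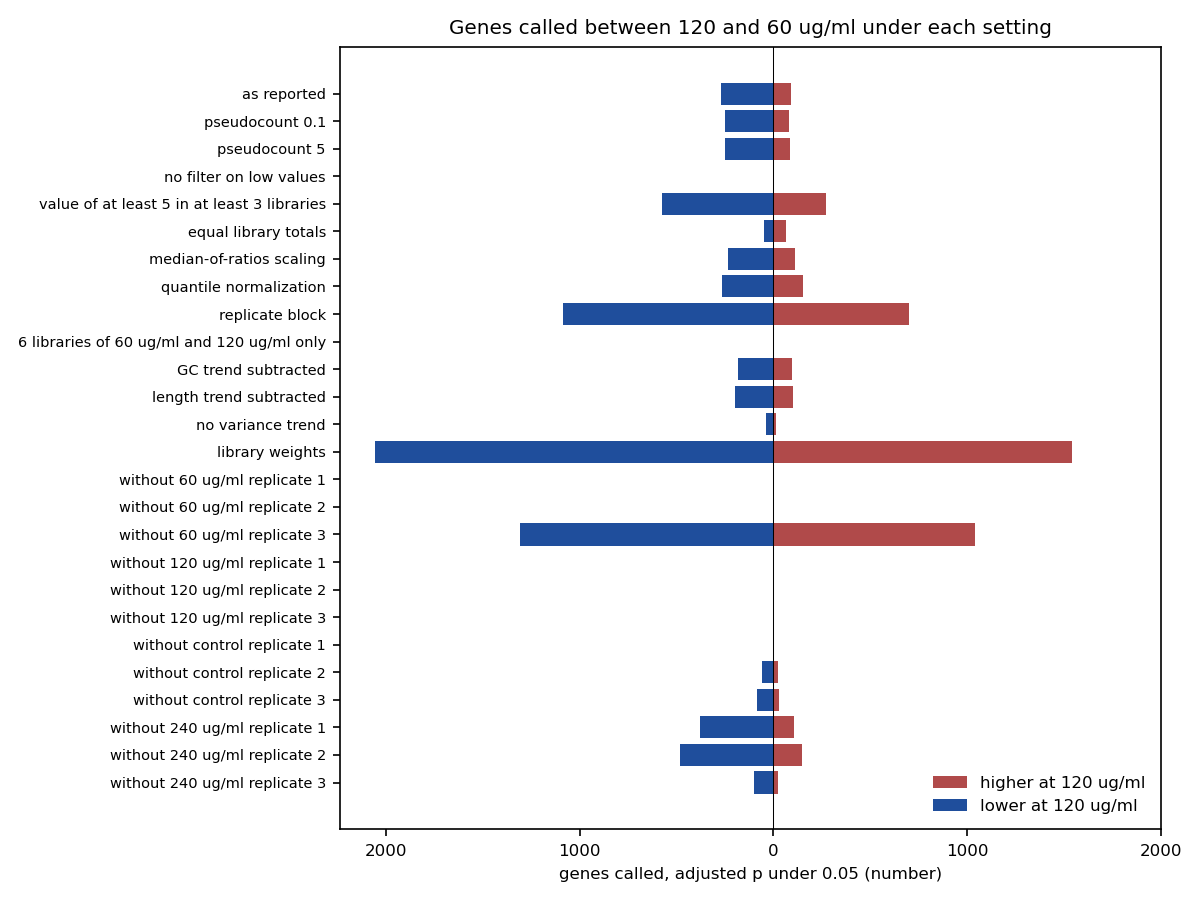
Number of genes called at an adjusted p of 0.05 between 120 and 60 ug/ml (horizontal axis, lower to the left in blue, higher to the right in red) for the reported fit and for each alternative (vertical axis). The reported fit has 90 higher and 270 lower genes, with 1040 and 1308 without the third 60 ug/ml library and 0 and 1 without the first or the second.

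The split of the calls moved with the scaling. Library totals were lower at 120 than at 60 ug/ml, and scaling every library to an equal total shifted the median log2 difference of all genes from -0.02 to 0.12. With equal totals 63 genes were higher and 48 lower, so the lower share went from 75% to 43.2%. Quantile normalisation gave 155 higher and 263 lower (62.9% lower). Log2 differences are therefore relative to the deposited scaling. Across genes the log2 difference also correlated with GC content (r = -0.27 over the 99.92% of tested genes with a GC value, which share the libraries and are not independent). With each library's GC trend subtracted 97 genes were higher and 181 lower, including 64 of the 90 and 160 of the 270, and the part of GC content in the result was not tested.

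The called genes mostly continued a change that spans the whole dose range. The comparison of 240 ug/ml with control shares no library with 120 against 60 ug/ml, but both use the same estimate of spread. Between 240 ug/ml and control 43.1% of all genes were called. There, 77 of the 90 higher genes (85.6%) were higher, against 19.7% of all genes, and 259 of the 270 lower genes (95.9%) were lower, against 23.5% of all genes. The median level of the 90 higher genes was 13.15 in control, 15.22 at 60, 23.15 at 120 and 26.03 at 240 ug/ml. That of the 270 lower genes was 43.8, 32.42, 19.82 and 17.5. The levels at 60 and 120 ug/ml helped to choose these genes. The control and 240 ug/ml libraries entered the choice only through the shared estimate of spread. A small spread makes a call easier in both comparisons, so the shares above are not independent of the choice. Between 240 and 120 ug/ml, 0 genes were called by limma, with 1331 genes (7.93%) at an unadjusted p under 0.05.

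**Figure D3:**
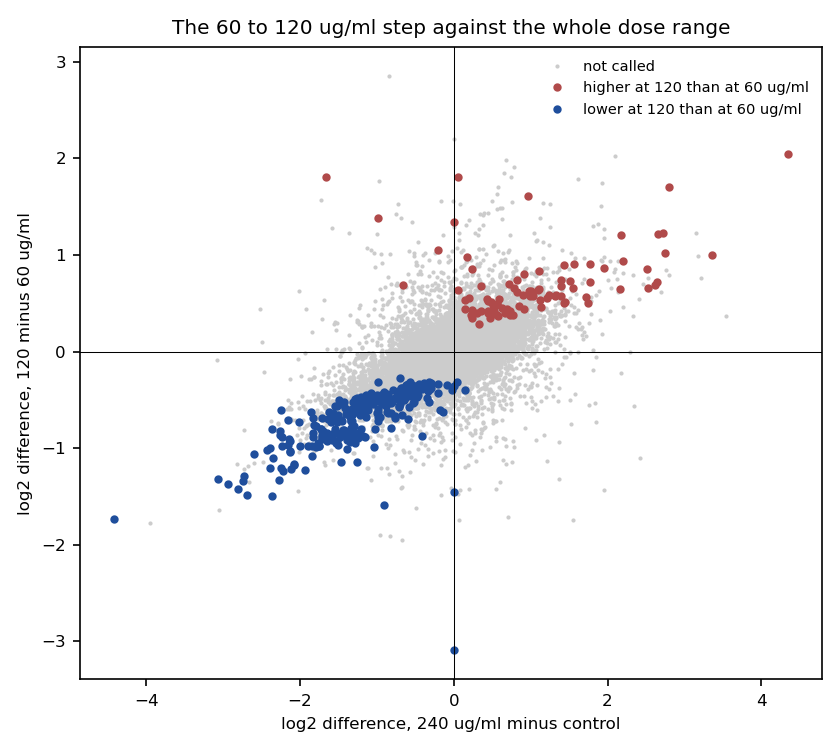
Log2 difference of 120 minus 60 ug/ml (vertical axis) against that of 240 ug/ml minus control (horizontal axis) for each tested gene, with genes called higher at 120 ug/ml in red and lower in blue. Of the 90 red genes 77 were called higher across the whole range, and of the 270 blue genes 259 were called lower.

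A direct test asked whether the step from 60 to 120 ug/ml differed from the step from control to 60 ug/ml. By limma 3 genes were called (0.0179%), 2 with a more positive (0.0119%) and 1 with a more negative difference (0.00596%), while 2780 genes (16.6%) had an unadjusted p under 0.05. Against the step from 120 to 240 ug/ml, 2 genes (0.0119%) were called, 1 in each direction (0.00596% each), with 723 (4.31%) at an unadjusted p under 0.05.

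The promoters of 2 called genes are printed because they stand for the opposite directions, MMP7 with the lowest difference among the protein-coding genes named and TXNRD1 as an antioxidant gene that was higher. Both are from RefSeq on GRCh38.p14 and cover 250 bases before to 50 after a transcript start. The MMP7 window is chr11:102530698-102530997 on the minus strand, with an AP-1 motif (TGANTCA) and a TATA motif (TATAAA) in capitals. The TXNRD1 window printed is chr12:104215529-104215828 on the plus strand. It has a pair of antioxidant response element cores (TGACNNNGC, the second read on the opposite strand) in capitals. Another TXNRD1 window, chr12:104286782-104287081, has 1 such core and is not printed. Which start the signal comes from was not tested.
MMP7: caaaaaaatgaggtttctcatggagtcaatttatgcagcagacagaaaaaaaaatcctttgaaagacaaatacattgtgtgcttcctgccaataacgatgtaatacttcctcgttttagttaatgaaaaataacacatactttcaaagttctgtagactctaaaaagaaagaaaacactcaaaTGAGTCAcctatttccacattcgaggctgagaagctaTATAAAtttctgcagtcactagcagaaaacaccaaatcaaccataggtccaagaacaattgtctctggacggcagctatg
TXNRD1: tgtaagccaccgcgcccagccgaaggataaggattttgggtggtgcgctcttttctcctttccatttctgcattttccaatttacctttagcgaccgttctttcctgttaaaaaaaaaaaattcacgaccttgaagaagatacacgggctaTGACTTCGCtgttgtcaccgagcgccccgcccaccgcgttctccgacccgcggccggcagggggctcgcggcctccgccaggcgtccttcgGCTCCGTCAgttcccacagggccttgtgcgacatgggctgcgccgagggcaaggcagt
Motifs were searched as these letters on both strands, and a stretch beginning TGAC can match both the AP-1 and the antioxidant motif. A window was found for 271 of the 360 called genes, 64 higher and 207 lower, and for 11038 tested genes. The AP-1 motif was in 7.81% of the windows of higher genes, 8.21% of those of lower genes and 6.94% of all. The antioxidant core was in 20.3%, 20.3% and 19.3%, the hypoxia response core ACGTG in 35.9%, 27.5% and 32.2%, and TATAAA in 15.6%, 14% and 8.26%. These matches describe the letters only.

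Several genes of growth control were higher at 120 ug/ml. CCND1 encodes cyclin D1, which drives entry into the cell cycle with its kinase partners (ENSG00000110092.3, chr11:69641087-69654474, plus strand). Its level was 30.8, 20.2 and 34.2 at 60 ug/ml, then 63.0, 51.7 and 55.8 at 120 ug/ml, a log2 difference of 1.00 (SE 0.18, limma adjusted p = 0.0312). All 120 ug/ml libraries exceeded all 60 ug/ml libraries, and both groups exceeded the controls at 6.7, 5.8 and 4.4. ERRFI1, an inhibitor of the EGF receptor that is itself induced by the receptor, was at 79.6, 59.5 and 105.3, then 164.3, 137.5 and 147.3 (0.90, SE 0.17, limma adjusted p = 0.0341). DUSP6, the phosphatase that switches off ERK, went from 24.5 ± 3.50 to 39.0 ± 2.86, and FOSL1, an AP-1 subunit stabilised by ERK, from 91.1 ± 19.6 to 141 ± 8.32 (SD, n = 3). Their log2 differences were 0.66 and 0.64 (limma adjusted p = 0.0346 and 0.0391). In each of these 4 genes the third library was the highest of the 60 ug/ml group, without reaching the 120 ug/ml libraries.

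HMGA2, an architectural chromatin protein of fetal and transformed cells (chr12:65824131-65966295, plus strand), was at 165.0, 117.5 and 214.8 at 60 ug/ml, then 317.2, 285.7 and 274.5 at 120 ug/ml. The groups did not overlap, and the log2 difference was 0.86 (SE 0.17, limma adjusted p = 0.0377). TMEM158, a membrane protein described as induced by oncogenic RAS, was at 3.8, 1.9 and 5.9, then 9.6, 9.1 and 10.5, without overlap (log2 difference 1.23, SE 0.24, limma adjusted p = 0.0365). ARHGAP22, which switches off the GTPase RAC, was at 38.6, 28.6 and 45.9, then 96.8, 82.9 and 82.2 (1.21, SE 0.17, limma adjusted p = 0.0244). Part of the ARHGAP22 rise was in transcripts annotated as non-coding, since ARHGAP22-214 had means of 8.63 and 28 while the coding ARHGAP22-201 had 5.03 and 10.8. In a fit to single transcripts 6 of 61128 were called (0.00982%), 2 higher (0.00327%) and 4 lower (0.00654%), with 8473 at an unadjusted p under 0.05. Neither ARHGAP22 transcript was among them. SEMA7A, a membrane-anchored semaphorin, rose from 15.7 ± 3.23 to 29.2 ± 1.72, and RSF1, a chromatin remodelling subunit, from 10.0 ± 1.57 to 17.3 ± 1.26 (SD, n = 3). KRTAP2-3, a keratin-associated protein with close paralogs that make its assignment uncertain, rose from 29.1 ± 6.11 to 54.6 ± 8.80.

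Among stress and angiogenic genes, VEGFA, the endothelial growth factor (chr6:43770184-43786487, plus strand), was at 83.7, 60.2 and 88.9 at 60 ug/ml, then 160.5, 145.7 and 137.6 at 120 ug/ml. The groups were apart by a log2 difference of 0.94 (SE 0.17, limma adjusted p = 0.0312), and the 240 ug/ml libraries were at 186.4, 227.6 and 162.6. HMOX1, the heme-degrading enzyme heme oxygenase 1 (chr22:35380361-35394214, plus strand), was at 50.4, 35.5 and 48.6, then 73.2, 61.9 and 92.2 (0.74, SE 0.17, limma adjusted p = 0.045). The lowest HMOX1 library at 60 ug/ml lay within the control range of 34.3 to 40.5. TXNRD1, a thioredoxin reductase whose promoter is printed above, was at 122.2, 106.6 and 154.6, then 208.3, 194.7 and 230.4 (0.73, SE 0.13, limma adjusted p = 0.0312). The TXNRD1 libraries at 120 ug/ml were all above those at 60 ug/ml, and those in turn above the controls at 86.9, 87.7 and 74.2.

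DDIT3, the stress transcription factor CHOP, had 39.1, 38.1 and 35.2 at 60 ug/ml, then 45.8, 44.7 and 47.3 at 120 ug/ml. It was called with a log2 difference of 0.29 (SE 0.06, limma adjusted p = 0.045), although the control libraries at 47.7, 44.1 and 43.8 were at the 120 ug/ml level. CXCL2, a neutrophil chemokine, rose from 28.5 ± 2.54 to 43.0 ± 1.55, and SCEL, a cornified envelope protein, from 15.8 ± 2.01 to 26.6 ± 3.51 (SD, n = 3). The phosphate importer SLC20A1 (99.0 ± 15.6 to 139 ± 3.40) and the calcium pump ATP2B1 (40.4 ± 8.77 to 63.6 ± 2.89) rose as well. NOP58, a core protein of box C/D snoRNPs, rose from 81.9 ± 8.67 to 111 ± 5.83.

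The genes with the lowest differences included secreted and membrane proteins of epithelium. MMP7, the matrix metalloproteinase matrilysin (ENSG00000137673.8, chr11:102520508-102530753, minus strand), was at 88.5, 157.6 and 64.6 at 60 ug/ml, then 27.6, 26.7 and 31.1 at 120 ug/ml. It fell by 1.73 on the log2 scale (SE 0.33, limma adjusted p = 0.0346), with no overlap, from controls at 307.7, 387.6 and 449.9. MMP24, a membrane-anchored member of the same protease family, fell from 105 ± 21.2 to 65.6 ± 7.16 (SD, n = 3). WFDC2, a secreted epithelial protein known as HE4, was at 46.8, 55.3 and 38, then 16.9, 22.5 and 18.3 (-1.23, SE 0.15, limma adjusted p = 0.0244). WFDC2 was called in 18 of the 25 alternative fits, more than any other named gene except MIR1302-5, with adjusted p from 0.0016 to 0.127 over them. SERPINA1, the protease inhibitor alpha-1 antitrypsin, was at 217.7, 231.3 and 141.3, then 93.1, 81.8 and 69.7 (-1.24, SE 0.22, limma adjusted p = 0.0312). In all of these the third 60 ug/ml library was the lowest of its group and still above every 120 ug/ml library.

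Several genes of transport, hormone and tubule functions also fell. SLC34A2, a sodium-phosphate cotransporter (chr4:25648011-25678748, plus strand), was at 8.7, 14 and 4.0 at 60 ug/ml, then 2.2, 3.1 and 1.5 at 120 ug/ml (-1.49, SE 0.32, limma adjusted p = 0.0419). AGT, which encodes angiotensinogen (chr1:230702523-230714297, minus strand), was at 9.3, 11.1 and 5.0, then 2.6, 2.3 and 1.8 (-1.50, SE 0.22, limma adjusted p = 0.0267). The control libraries of SLC34A2 (10.7, 12.1 and 9.7) lay within the 60 ug/ml range, whereas those of AGT (15.5, 19.1 and 14.5) lay above it. PDZK1IP1, a small membrane protein of the proximal tubule, was at 270.0, 303.3 and 185.7, then 105.1, 95.3 and 91.1 (-1.34, SE 0.22, limma adjusted p = 0.0298). HOGA1, the mitochondrial aldolase lost in a form of primary hyperoxaluria, was at 50.6, 62.2 and 39.5, then 23, 23.9 and 17.0 (-1.21, SE 0.16, limma adjusted p = 0.0244). FXYD2, the gamma subunit of the renal sodium pump, fell from 174 ± 41.3 to 76.1 ± 6.82, and SCNN1A, the alpha subunit of the epithelial sodium channel, from 11.2 ± 3.22 to 5.03 ± 0.896 (SD, n = 3). CYP24A1, which inactivates vitamin D, fell from 20.2 ± 3.31 to 10.7 ± 2.17. SMIM24, a small integral membrane protein, fell from 27.8 ± 8.17 to 11.1 ± 1.55.

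Matrix and complement genes were also lower. LUM, the proteoglycan lumican (chr12:91102629-91111831, minus strand), was at 130.5, 152.7 and 83.9 at 60 ug/ml, then 47.2, 50.7 and 46.7 at 120 ug/ml (-1.28, SE 0.24, limma adjusted p = 0.0343). LUM is also a fibroblast marker, and the summed level of the 5 fibroblast markers was 107.4 to 205.4 at 60 and 62.5 to 71.1 at 120 ug/ml. That sum was nearly all LUM and DCN, while PDGFRA and COL3A1 did not exceed 0.5 and 0.1 in any library and PDGFRB did not exceed 1.8. Its part in the matrix result was not tested. SPARC, a collagen-binding matrix protein, was at 803.5, 940.9 and 639.0, then 377.9, 343.9 and 411.4 (-1.06, SE 0.17, limma adjusted p = 0.0298). CFI, a protease that cleaves complement C3b and C4b, had 1.4, 4.8 and 2.0, then 0.2, 0.2 and 0.5 (-1.42, SE 0.29, limma adjusted p = 0.0376). No CFI library at 120 ug/ml reached the lowest at 60 ug/ml, but its values are low and its fold is understated by the added 1. PLA1A, a phospholipase that acts on phosphatidylserine, fell from 24.5 ± 12.4 to 8.37 ± 1.31 (SD, n = 3), and PSG8, a pregnancy-specific glycoprotein whose close paralogs make its level uncertain, from 22.3 ± 8.37 to 8.00 ± 2.27.

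**Figure D4:**
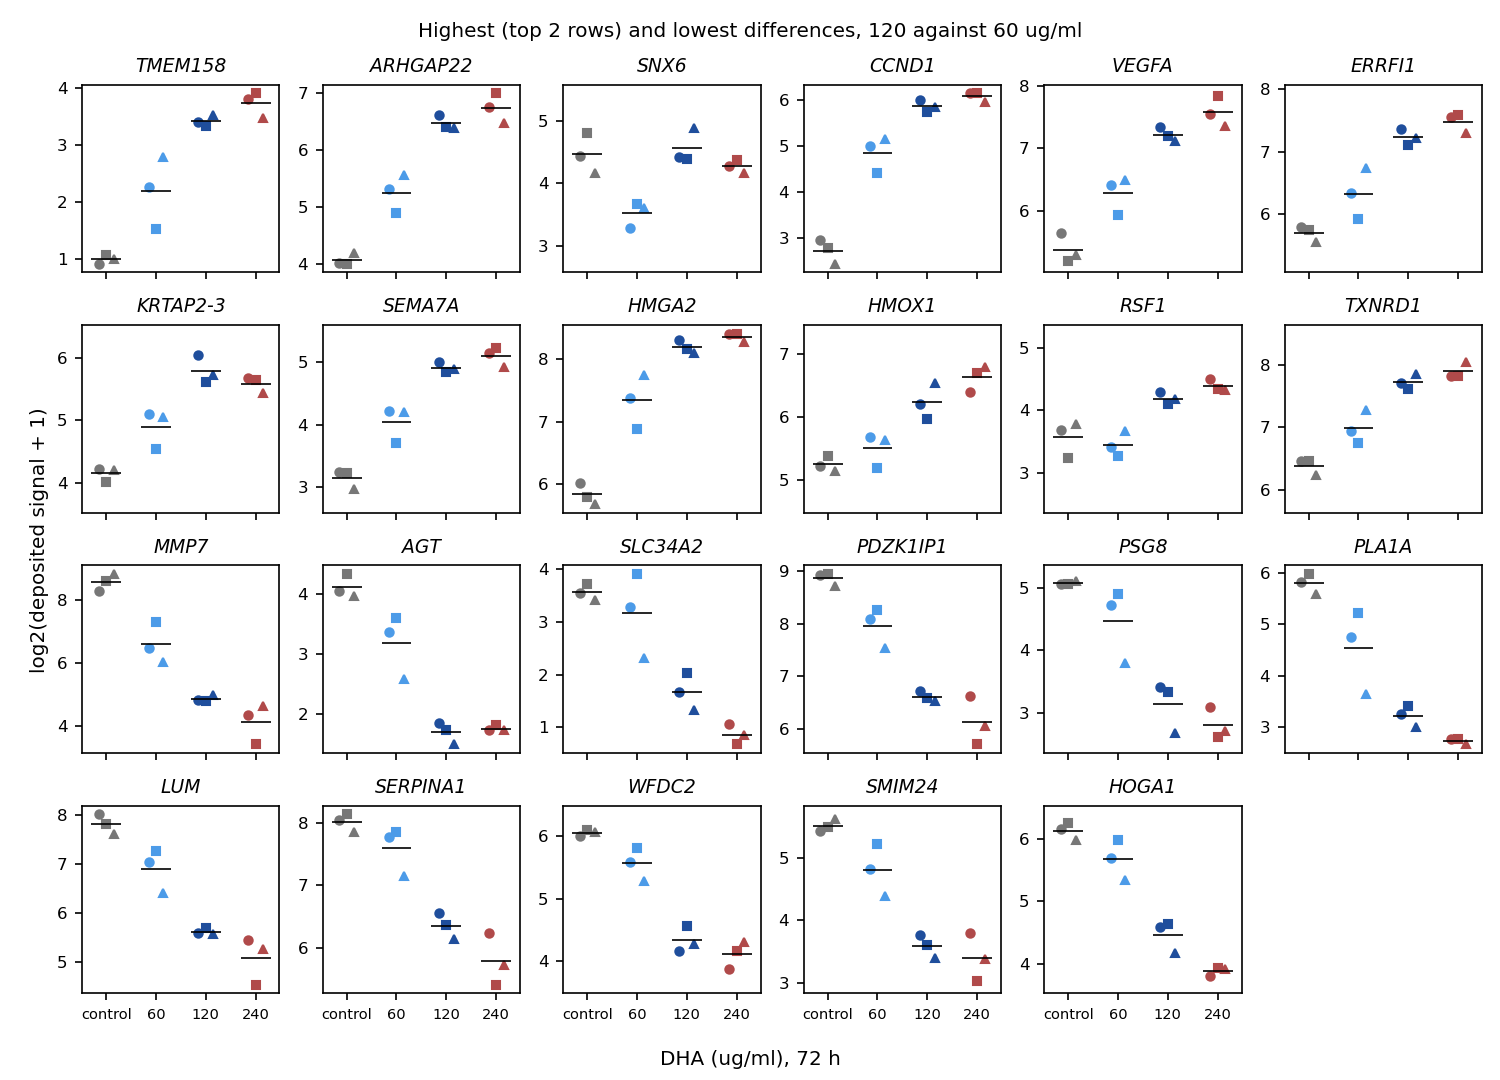
Log2(deposited signal + 1) in each of the 12 libraries (points, with shapes for library numbers and a bar at each group mean) by DHA dose (ug/ml) for the 12 genes with the highest (upper 2 rows) and 11 of the 12 with the lowest (lower 2 rows) differences. The vertical axes differ between genes, all 120 ug/ml points lie beyond the 60 ug/ml points, and in the lower genes shown the triangle at 60 ug/ml, the third library, lies nearest to the 120 ug/ml points.

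Gene lists were read against the background of 2.14% of genes called and a median log2 difference of -0.02 over all genes. The background for unadjusted counts is the 24.1% of all genes with an unadjusted p under 0.05 in either direction. List values given with equal library totals have another background, a median of 0.12 over all genes. That fit had 63 genes higher and 48 lower of 16707, with 4280 at an unadjusted p under 0.05. A list median that turned from negative to positive there moved with the median of all genes. Among growth signalling lists, 2 of 23 immediate early genes were called (FOSL1 higher, the antiproliferative BTG2 lower, median 0.13). Of 21 ERK feedback genes 1 was called (DUSP6, median 0.17), and of 13 EGF receptor ligands and receptors 1 was called (ERRFI1, median -0.04, 0.12 with equal library totals). Of 19 G1 cyclins, CDKs and inhibitors 2 were called, CCND1 higher and the CDK4 and CDK6 inhibitor CDKN2C lower (32.0 ± 5.94 to 18.8 ± 1.97), with a median of -0.20. In that list 2 were higher and 8 lower at an unadjusted p under 0.05. With equal library totals 5 were higher and 3 lower unadjusted, and the median was -0.05. S phase and mitosis differed in their medians. Of 42 replication genes 0 were called by limma, with 3 higher and 1 lower at an unadjusted p under 0.05. Their median was 0.04 (0.21 with equal library totals). Of 38 mitosis genes 0 were called by limma, with 16 higher and 1 lower unadjusted and a median of 0.26 (0.42 with equal library totals). Without the third 60 ug/ml library 19 mitosis genes were called higher, among 1040 of all genes. The mitotic ubiquitin-conjugating enzyme UBE2C was at 322.5, 299.2 and 475.6 at 60 ug/ml, then 415.8, 368.2 and 459.8 at 120 ug/ml, so that the third 60 ug/ml library was above every 120 ug/ml library.

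Lists of biosynthesis had positive medians with few calls. Of 36 ribosome biogenesis genes 1 was called (NOP58), 16 were higher and 1 lower unadjusted, and the median was 0.26. Of 22 amino acid transporters 0 were called by limma, 8 were higher and 0 lower unadjusted, and the median was 0.25. Of 20 cytosolic aminoacyl-tRNA synthetases 0 were called by limma, 9 were higher and 1 lower unadjusted, and the median was 0.18. Without the third 60 ug/ml library the higher calls were 18, 7 and 7 in these lists, among 1040 of all 16789 genes. The unfolded protein and integrated stress response list had 1 of 36 called (DDIT3) and a median of 0.09. Hypoxia and glycolysis had 1 of 36 called (VEGFA), 10 higher and 0 lower unadjusted, and a median of 0.29. Without the third 60 ug/ml library 11 of its genes were called higher, among the same 1040. The glycolytic enzyme ENO1 was at 3041.7, 2527.6 and 3614.4, then 3280.9, 3077.2 and 3566.3, with overlapping groups.

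Ribosomal and mitochondrial lists had negative medians, also with equal library totals. Their unadjusted counts stand beside 24.1% of all genes with an unadjusted p under 0.05 in either direction. Of 77 cytosolic ribosomal protein genes 0 were called by limma, 25 were lower and 0 higher unadjusted, and the median was -0.40 (-0.23 with equal library totals). RPL10 was at 4213.1, 4577.6 and 3615.1 at 60 ug/ml, then 2705.1, 2490.2 and 3230.3 at 120 ug/ml (limma adjusted p = 0.143), and processed copies of such genes make their levels uncertain. The share of signal from ribosomal proteins was 10.9%, 12.3% and 11.1% at 60 and 9.11%, 8.59% and 11.6% at 120 ug/ml, so it overlapped through the third 120 ug/ml library. Of 67 nuclear respiratory chain genes 0 were called by limma, 20 were lower and 0 higher unadjusted, and the median was -0.25. With equal library totals 11 were lower and 1 higher unadjusted, and the median was -0.09. COX4I1, a subunit of cytochrome oxidase, was at 546.9, 654.3 and 610.6, then 372.5, 349.6 and 573.8 (limma adjusted p = 0.142). Of 13 mitochondrially encoded mRNAs 0 were called by limma and 0 had an unadjusted p under 0.05, with a median of -0.34 (-0.17 with equal library totals).

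**Figure D5:**
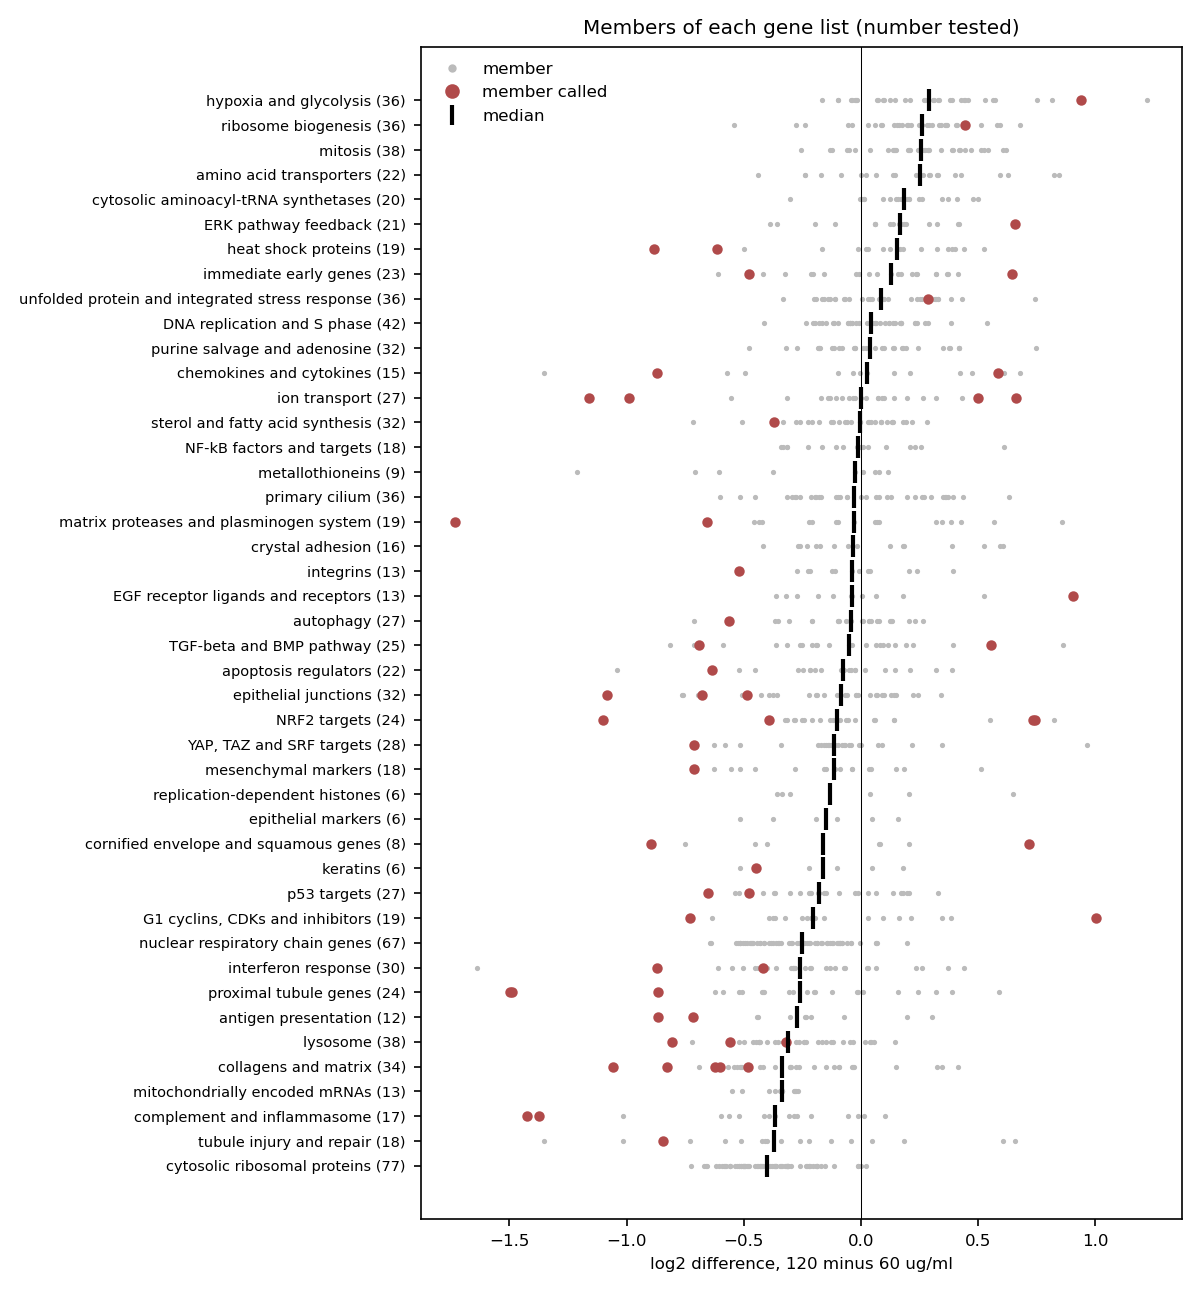
Log2 difference of 120 minus 60 ug/ml (horizontal axis) for each tested member of the gene lists (vertical axis, number tested in brackets), with called members in red and a bar at each list's median. Medians run from -0.40 for cytosolic ribosomal proteins to 0.29 for hypoxia and glycolysis, against -0.02 for all genes, in the lists shown.

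In the matrix, junction, mesenchymal, integrin and keratin lists every called member was lower at 120 ug/ml, as were 75% of all called genes. Of 34 collagens and matrix genes 5 were called, all lower, and the median was -0.33. They were SPARC, COL1A1 (9.77 ± 2.42 to 4.97 ± 0.577), COL4A1 of the basement membrane (360 ± 45.0 to 232 ± 15), COL18A1, and the collagen chaperone SERPINH1 (SD, n = 3). COL18A1 was highest at 60 ug/ml, at 25.6, 24.4 and 25.6, against 17.7, 18.4 and 13.2 at 120 ug/ml and 18.5, 22.1 and 18.1 in control. Without the third 60 ug/ml library 17 matrix genes were called lower and 2 higher, among 1308 lower and 1040 higher of all genes. With equal library totals 2 were lower and the median was -0.19. Of 32 epithelial junction genes 3 were called, all lower, with a median of -0.08 that became 0.03 with equal library totals. They were the kidney cadherin CDH16 (8.50 ± 3.08 to 3.37 ± 0.862), the polarity protein CRB3 (46.7 ± 5.19 to 28.7 ± 2.26) and the junctional adhesion molecule F11R (67.2 ± 5.85 to 47.8 ± 4.65). Of 18 mesenchymal markers 1 was called, the myosin light chain MYL9 (375 ± 28 to 229 ± 30.6), with a median of -0.11 that became 0.05 with equal library totals. MYL9 was also the call among 28 targets of YAP, TAZ and SRF. Of 13 integrins 1 was called, ITGB6, an epithelial beta subunit that activates latent TGF-beta (9.93 ± 1.19 to 6.60 ± 0.458). Of 6 keratins 1 was called, KRT80 (69.3 ± 6.15 to 50.5 ± 2.45).

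Of 24 genes in the proximal tubule list 3 were called, all lower (AGT, SLC34A2 and CYP24A1), and the median was -0.26. With equal library totals 1 was lower and the median was -0.12. SLC34A2 is not the proximal tubule marker SLC34A1, which did not exceed 0.9 in any library. Of 27 ion transport genes 4 were called, SLC20A1 and ATP2B1 higher and FXYD2 and SCNN1A lower, and the median was 0.00. Of 18 tubule injury and repair genes 1 was called, IGFBP7, a secreted marker of tubule stress, at 532.5, 527.2 and 370.9 at 60 ug/ml, then 274.4, 260.3 and 249.9 at 120 ug/ml (-0.85, SE 0.16, limma adjusted p = 0.0346). Its direction was downward, and the list's median was -0.37 (-0.22 with equal library totals). SPP1, the crystal-binding protein osteopontin, was at 2529.1, 2514.3 and 2385.3, then 2057.2, 1893.5 and 2273.0, without overlap and without a call (limma adjusted p = 0.333). Its log2 difference was -0.26, and 0.07 after quantile normalisation. Of 16 crystal adhesion genes and 32 genes of purine salvage and adenosine 0 were called by limma, with 4 higher and 2 lower, and 8 higher and 2 lower, at an unadjusted p under 0.05. Their medians were -0.04 (0.13 with equal library totals) and 0.04. PAICS, an enzyme of purine synthesis, had 179 ± 23.6 and 228 ± 27.1 with overlapping groups (SD, n = 3, limma adjusted p = 0.109).

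In the immune lists, 2 of 17 complement and inflammasome genes were lower, among them CFI (median -0.37), and 2 of 30 interferon response genes were lower (IFITM3 and ISG15, median -0.26). With equal library totals 1 was lower in each, and the medians were -0.23 and -0.14. IFITM3, an antiviral membrane protein with close paralogs, was at 62.4, 68.0 and 47.5, then 30.6, 34.0 and 30.4. Of 12 antigen presentation genes 2 were lower, the class II invariant chain CD74 (181 ± 35.4 to 108 ± 9.78) and HLA-C, whose level of 1.77 against 0.533 covers only its matched transcripts. Of 15 chemokines and cytokines 2 were called, CXCL2 higher and the membrane-tethered CX3CL1 lower (23.4 ± 6.22 to 12.1 ± 1.66, SD, n = 3). Of 18 NF-kB factors and targets 0 were called by limma, with 2 higher and 5 lower unadjusted. NFKBIZ, a nuclear regulator of NF-kB, was at 214.4, 215.8 and 216.8, then 257.2, 263.9 and 239.1, without overlap and with an adjusted p of 0.087 by limma.

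Stress defence lists were mixed. Of 24 NRF2 targets 4 were called, HMOX1 and TXNRD1 higher and AKR1C3 and EPHX1 lower, with a median of -0.10 (0.06 with equal library totals). AKR1C3, a ketosteroid reductase with close paralogs, fell from 10.8 ± 3.77 to 4.33 ± 0.603 (SD, n = 3), and EPHX1, an epoxide hydrolase, was at 200.3, 209.4 and 189.9, then 139.2, 159.7 and 157.7. Of 19 heat shock proteins 2 were called, the small heat shock proteins HSPB8 (44.9 ± 7.85 to 23.7 ± 1.97) and CRYAB (51.1 ± 10.4 to 32.6 ± 2.26), both lower. That list's median was 0.15, on the other side from its calls. Of 9 metallothioneins 0 were called by limma, with 0 higher and 2 lower unadjusted, and MT2A had 6100 ± 563 and 6110 ± 120. Of 27 p53 targets 2 were lower, TP53INP1 (10.9 ± 2.32 to 6.50 ± 1.04) and BTG2 (6.90 ± 0.624 to 4.67 ± 0.252), and of 22 apoptosis regulators 1 was lower, the survival factor BCL2 (8.80 ± 1.42 to 5.27 ± 0.252). The p53 list's median was -0.18. With equal library totals 0 p53 targets were called by limma, with 5 higher and 3 lower unadjusted, and the median was -0.02.

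Of 38 lysosome genes 3 were lower, 20 were lower and 0 higher unadjusted, and the median was -0.31. Among the called members were the protease CTSH (93.4 ± 17.5 to 52.4 ± 2.60) and the fucosidase FUCA1 (28.4 ± 4.62 to 18.8 ± 1.04, SD, n = 3). Without the third 60 ug/ml library 19 lysosome genes were lower, among 1308 of all genes, while with equal library totals 1 was lower and the median was -0.15. Of 27 autophagy genes 1 was lower, GABARAP, which marks the autophagosome membrane, at 307.8, 317.6 and 262.3, then 197.8, 195.7 and 204.5, with a list median of -0.04 (0.12 with equal library totals). Of 32 genes of sterol and fatty acid synthesis 1 was lower, the mevalonate pathway kinase PMVK (59.7 ± 2.26 to 45.9 ± 2.79). Of 25 TGF-beta and BMP genes 2 were called, the SMAD repressor SKIL higher (20.1 ± 2.49 to 29.8 ± 0.520) and the BMP target ID1 lower (168.0, 186.6 and 135.9, then 92.1, 98.2 and 110.9). Of 8 cornified envelope and squamous genes SCEL was higher and the calcium-binding S100A2 lower (210 ± 10.2 to 114 ± 24.6). Of 36 primary cilium genes and 6 replication-dependent histones 0 were called by limma, with 6 higher and 5 lower, and 1 higher and 0 lower, at an unadjusted p under 0.05.

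Some called genes did not continue along the dose range. Of the 90 higher genes, 10 were not called between 240 ug/ml and control and 3 were lower there. SNX6, a sorting nexin of the retromer pathway (chr14:34561094-34630183, minus strand), was at 8.7, 11.7 and 11.2 at 60 ug/ml, then 20.5, 20 and 28.4 at 120 ug/ml (1.05, SE 0.17, limma adjusted p = 0.0298). Its controls were at 20.7, 26.9 and 17.0 and its 240 ug/ml libraries at 18.3, 19.6 and 17.0, so that 60 ug/ml was the low group. Most of the SNX6 difference was in the transcript SNX6-207, annotated as a retained intron, with means of 3.33 and 13.8. SNX6-207 was not called in the fit to single transcripts, where 0 of 9130 retained-intron transcripts were called by limma. SKIL was likewise lowest at 60 ug/ml, with controls at 26.8, 21.4 and 28.1. Of the 270 lower genes, 11 were not called between 240 ug/ml and control, and 0 were higher there. All 11 had their highest mean at 60 ug/ml, among them DHRS11, CERS1, RAC3 and COL18A1, which are named after their values were seen. Choosing genes lower at 120 than at 60 ug/ml but not lower across the range favours this pattern. RAC3, a RAC family GTPase, was at 36.5, 37.0 and 33.5 at 60 ug/ml, against 25.7, 28.7 and 26.0 at 120 ug/ml and 28.8, 27.6 and 25.4 in control.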

How the data were processed

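The deposited table holds a normalised signal, with no unit named, for each of 267165 Ensembl transcripts in 12 libraries, written to 1 decimal. Fractional values and totals of 791808 to 1228979 per library show that read depth was not kept, so no interval or floor from counts is given. Per the labels' protocols, poly(A) RNA was copied with random primers and read paired-end on a DNBSEQ instrument. The build is GRCh38.p14 per the submitters' processing notes, and the sources used here name no aligner, quantification tool or strand setting. Groups and replicate numbers came from the sample titles.

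Transcripts were matched to GENCODE release 29 without versions (202305, 75.7%) and summed per gene. Matched transcripts held 93.8% to 94.7% of each library's total, so a gene's sum can miss a main transcript. Gene positions are those of that release on GRCh38. The 16789 genes reaching a signal of 1 in 3 or more libraries were tested with limma 3.58.1 in R 4.3.3, by the moderated test with a variance trend on log2(signal + 1), which understates the change of low genes. The fit held all 12 libraries with 4 group means. Adjusted p-values are two-sided Benjamini-Hochberg values over all tested genes, called at 0.05. On simulated data for 120 against 60 ug/ml over 16789 genes, log2 changes of 0.5, 1, 2 and 3 were found in 48%, 88%, 98% and 100% of 50 genes each, and 8 of 175 calls (4.57%) were false. Changes were planted only in genes above a minimum mean level. The simulated noise was independent between genes, so no library was shifted as a whole, whereas the third 60 ug/ml library lay apart from its group. These rates may therefore not hold for the real libraries.

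The genes named are those called with a mean of at least 5 in either group and the 12 highest or 12 lowest differences, up to 4 called members of each of 49 lists, and, for lists without a call, members with high levels. Results for some genes that meet this rule are not reported here. The comparison and the lists were chosen with earlier results of these data known. RefSeq promoter windows were matched by symbol, for 17 of the 24 genes with the highest or lowest differences. Alternatives were other pseudocounts, filters, scalings, covariate trends, weights, a replicate block and leaving out each library. The fit did not pair libraries by replicate number, since no source used here says what the number marks. Correlations of deviations between same-numbered libraries at 60 and 120 ug/ml were 0.06, 0.11 and 0.23. Those between differently numbered libraries ran from -0.19 to 0.11. Whether the numbers mark pairs was not tested.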

Additional observations from a re-analysis of the deposited data

Results flagged for a closer look

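A total of 4 genes had a step from 60 to 120 ug/ml that differed from a neighbouring step, by a limma contrast of the steps with an adjusted p under 0.05. TSGA10, a centrosomal protein gene (chr2:98997261-99154964, minus strand), was at 10.7, 10.0 and 11.5 in control, 4.6, 4.4 and 4.6 at 60, 8.3, 7.6 and 7.8 at 120 and 7.1, 6.5 and 5.7 at 240 ug/ml. Its step from 60 to 120 ug/ml was 1.77 above its step from control to 60 ug/ml on the log2 scale (SE 0.161, limma adjusted p = 0.00161), since it fell and then rose. RBIS, a ribosome biogenesis factor (chr8:85214076-85220421, minus strand), was at 94.2, 91.5 and 91.0 in control, 48.3, 50.4 and 46.5 at 60 and 55.1, 55.0 and 59.3 at 120 ug/ml, and the same contrast was 1.14 (SE 0.123, limma adjusted p = 0.00652). RBIS was not called between 120 and 60 ug/ml (limma adjusted p = 0.0973).

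The others are short microRNA loci at low levels, which poly(A) libraries measure poorly. MIR1302-5 was at 10.0, 5.5 and 7.7 at 60 ug/ml and listed at 0 in all other libraries. Its contrast of the 60 to 120 ug/ml step with the step before it was -6.19 (limma adjusted p = 1.17e-05), and that of the 120 to 240 ug/ml step with the 60 to 120 ug/ml step was 3.09 (limma adjusted p = 0.0168). MIR1827 was at 1.3, 1.6 and 1.7 at 120 ug/ml and listed at 0 elsewhere, and its later contrast was -2.68 (limma adjusted p = 0.0168). Against groups listed at 0 these contrasts depend on the added 1 and give no fold.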

How the results depend on the processing

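The 360 called genes, where tested, kept their direction under all 25 alternatives. For the 359 whose groups did not overlap, leaving out a library cannot change the direction. Rescaling could change it, but these genes were chosen for clear differences, so the kept direction is no sign of stability. The counts moved widely, and the deposited values keep no read depth to set their precision. Genes higher and lower at 120 ug/ml were 1 and 1 with no filter, 272 and 576 with a signal of at least 5 in 3 libraries, 155 higher with quantile normalisation, 48 lower with equal library totals, 0 and 1 in the fit to 6 libraries, 11 and 38 without a variance trend, and 1542 and 2056 with library weights. Leaving out a library gave 0 to 1040 higher and 1 to 1308 lower. With the replicate number as a block, 699 genes were higher and 1086 lower, including all 360. What the number marks is not known. DHA60 library 1 correlated best with DHA120 library 2 (0.11), while DHA60 libraries 2 and 3 correlated best with their own number (0.11 and 0.23).

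Genes called for the 60 to 120 ug/ml step against the step before it were 10 with a pseudocount of 0.1, 5 with no filter, 14 with the filter of 5, 11 with quantile normalisation, 120 with the replicate block, 12 with length trends subtracted, 662 with library weights and 3 to 5 on leaving out a library. Against the later step they were 0, 4, 0 and 0 for the pseudocount of 0.1, no filter, the filter of 5 and the block, 1 with a pseudocount of 5, 4 without a variance trend and 0 to 2 on leaving out a library. Genes higher at 120 than at 60 and at 240 ug/ml than in control (77) were 0 with no filter, 246 with the filter of 5, 137 with quantile normalisation, 615 with the block, 8 without a variance trend, 1249 with weights and 0 to 908 without a library. Genes lower in both (259) were 0, 543, 981, 36, 1745 and 0 to 1167 under the same alternatives other than quantile normalisation, and 47 with equal totals.

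Transcripts called higher (2) and lower (4) were 0 and 2 with a pseudocount of 0.1, 1 and 2 with a pseudocount of 5, 26 and 74 with the filter of 5, 0 and 2 in the fit to 6 libraries, and 80 and 210 with weights. Those higher were 1 with quantile normalisation, 0 with the block, 1 with GC and 1 with length trends subtracted, and 5 without a variance trend, and those lower 2 with equal totals. Leaving out a library gave 0 to 337 and 2 to 508.

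Among genes without a call, log2 differences changed sign for WARS1 (0.16 with equal totals, 0.02 with median-of-ratios scaling, 0.09 quantile, 0.05 GC, 0.06 length, -0.06 to 0.03 on leaving out a library), MCM7 (0.11 equal totals, 0.08 quantile, 0.07 GC), PCNA (0.07 equal totals, 0.05 quantile), SYNPO (0.06 equal totals, 0.03 GC, -0.20 to 0.02), PRPS1 (0.05 equal totals), SPP1 (0.07 quantile) and MT2A (-0.02 with weights, -0.03 to 0.08). On leaving out a library it also did for ENO1 (-0.01 to 0.25), MT1X (-0.01 to 0.20), SLC1A5 (-0.02 to 0.13) and KRT19 (-0.04 to 0.11). The causes of these moves were not tested.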
